A study of Mus musculus with 4 samples.

Results

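Major histocompatibility complex (MHC) genes and the genes that feed peptides to them were examined in RNA from mouse uterus. Every deposited gene whose symbol starts with H2- was taken, together with B2m, Cd74, Ciita, Nlrc5, Tap1, Tap2, Tapbp, Psmb8, Psmb9 and Psmb10. This gave 44 genes of the 28545 in each table. Of these, 25 belong to class I, 9 to class II, and 10 act in processing, loading or transcription. Polyadenylated RNA was sequenced in 4 libraries, 2 titled SMAD7 Cre+/- (treatment CKO, here Cre-labelled) and 2 titled SMAD7fl/fl (treatment blank, here floxed-labelled). The floxed allele was made by injecting fertilized eggs with Cas9 mRNA, a guide RNA to Smad7 and a donor carrying loxP sites. All mice were in proestrus, the stage before ovulation. The titles do not say whether the Cre-labelled mice are homozygous for the floxed allele. Strain, age, the Cre driver and the exons removed are not stated in the labels or the design text. Neither is whether each library is a different animal, so p-values rest on library-to-library spread that may be purely technical.

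Class I molecules sit on nearly all nucleated cells as a heavy chain paired with beta-2-microglobulin, and they show peptides cut by the proteasome to CD8 T cells and natural killer (NK) cells. Interferon swaps the catalytic subunits of the proteasome for the immunoproteasome forms Psmb8, Psmb9 and Psmb10, and the pump Tap1-Tap2 carries the peptides into the endoplasmic reticulum. Class II molecules sit mainly on dendritic cells, macrophages and B cells, are escorted by the invariant chain Cd74, and show endosomal peptides to CD4 T cells. NLRC5 drives transcription of class I genes and CIITA that of class II genes.

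Smad7, the targeted gene, went against the labels. It stood at 49.9 and 33.9 FPKM (read counts scaled to gene length and library total) in the Cre-labelled libraries and at 7.79 and 7.81 FPKM in the floxed-labelled ones. The log2 fold change of 2.42 ± 0.28 (SE) came with an edgeR quasi-likelihood adjusted p of 0.0981, where the lowest of any gene was 0.0837. DESeq2 on the same counts gave Smad7 an adjusted p of 8.5e-11. With a library left out, the edgeR log2 fold change ran from 2.11 to 2.68. Directions below are thus those of the labels, and loss of Smad7 was not seen in the counts. Total counts per library ran from 17444368 to 22950532. The biological coefficient of variation was 0.163 within the Cre-labelled pair and 0.401 within the floxed-labelled pair, and 0.389 to 0.424 between libraries of the 2 groups. These values do not show which floxed-labelled library is the less typical. FPKM over all genes summed to 286056 and 285908 in Cre-labelled libraries, and to 296322 and 349664 in floxed-labelled ones. Several fold changes are also given without floxed replicate 1, the higher of its pair for 26 of the 30 genes tested below. Floxed replicate 2 is then the only floxed-labelled library. The labels name the tissue as endometrium. Smooth muscle genes mark the outer uterine wall but are not confined to it. They summed to 2856 and 2558 FPKM in Cre-labelled and 1797 and 1540.5 FPKM in floxed-labelled libraries. Epithelial markers summed to 917 and 754 FPKM against 649.6 and 1073 FPKM, and stromal markers to 1804 and 1639 FPKM against 1482 and 1267 FPKM.

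Of the 44 genes, 39 lie on chromosome 17 between 33915899 and 37483552 (GRCm38), the mouse MHC. B2m is on chromosome 2, Nlrc5 and Psmb10 are on chromosome 8 and Ciita is on chromosome 16. RefSeq promoter windows (GRCm38.p6) matched 21 of the 30 genes tested below, and the 250 bases before each start were searched on both strands for 5 short motifs, chosen after the sequences were seen. The motif GGGATTCCC, from the NF-kappa-B site of class I enhancer A, was found in 4 of 10 class I genes (H2-K1, H2-D1, H2-Q6 and H2-Q7) and in 0.352% of all 27025 genes. The motif GTTTCACTT, from the class I interferon response element, was found in 7 of 10 class I genes (the same 4 with H2-M3, H2-Q4 and H2-T22). It was in 0 of 5 class II genes, 0 of 6 processing genes and 0.4% of all genes. Because the motifs were chosen with the sequences in view, the shares given for all 5 are no test of enrichment. The motif GAAANNGAA, bound by interferon regulatory factors, was in H2-T22, H2-T23 and B2m, and in 8.18% of all genes. The motif GCAACNGAT, from the class II X box, was in H2-Eb1 and in 0.403% of all genes. A CCAAT box was in 10 of 10 class I, 5 of 5 class II and 4 of 6 processing genes, against 37.5% of all genes. No printed base fell under more than 1 motif. The stretches below are shown because they set the classical, non-classical and class II genes of the results side by side. They run 5′ to 3′ towards the start and hold no annotated exon. Capitals mark matches to the 5 motifs on either strand. A match describes the letters and is not evidence of binding.
H2-K1, chr17:34000348-34000537, minus strand: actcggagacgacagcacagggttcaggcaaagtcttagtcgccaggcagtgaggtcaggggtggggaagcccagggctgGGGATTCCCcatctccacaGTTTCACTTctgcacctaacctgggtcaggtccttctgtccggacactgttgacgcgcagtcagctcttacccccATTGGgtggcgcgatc
H2-Q6, chr17:35424660-35424849, plus strand: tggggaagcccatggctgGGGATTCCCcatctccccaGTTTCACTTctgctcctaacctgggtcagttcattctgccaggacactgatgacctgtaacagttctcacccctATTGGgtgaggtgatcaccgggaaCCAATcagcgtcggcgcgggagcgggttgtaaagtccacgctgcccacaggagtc
H2-Q7, chr17:35438965-35439154, plus strand: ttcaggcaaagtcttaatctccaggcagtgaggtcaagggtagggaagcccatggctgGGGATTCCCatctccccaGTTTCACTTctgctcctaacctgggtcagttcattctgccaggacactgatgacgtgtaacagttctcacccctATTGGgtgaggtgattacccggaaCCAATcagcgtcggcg
B2m, chr2:122147496-122147685, plus strand: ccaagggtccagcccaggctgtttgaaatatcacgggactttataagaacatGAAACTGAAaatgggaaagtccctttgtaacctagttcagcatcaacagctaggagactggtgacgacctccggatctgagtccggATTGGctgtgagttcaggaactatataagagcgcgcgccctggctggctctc
H2-Eb1, chr17:34305721-34305866, plus strand: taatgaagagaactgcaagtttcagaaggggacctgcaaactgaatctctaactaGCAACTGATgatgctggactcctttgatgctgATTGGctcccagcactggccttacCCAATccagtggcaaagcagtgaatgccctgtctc
H2-Aa, chr17:34287824-34288013, minus strand: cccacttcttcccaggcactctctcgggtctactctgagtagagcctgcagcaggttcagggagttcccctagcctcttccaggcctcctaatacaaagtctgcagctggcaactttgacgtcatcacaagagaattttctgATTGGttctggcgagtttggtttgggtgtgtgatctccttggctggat
H2-K1, H2-Q6 and H2-Q7 match GGGATTCCC and GTTTCACTT in the same order. The B2m stretch matches neither of these spellings but matches GAAANNGAA. H2-Eb1 matches the X box spelling, and of the 5 motifs H2-Aa matches only the CCAAT box. Sites of the same factors with other spellings were not searched for.

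The comparison asks how MHC expression differs between the Cre-labelled and the floxed-labelled uteri. A mean of at least 1 FPKM over the 4 libraries was required for the test, and 30 of the 44 genes met it. All 30 had a log2 fold change below 0, against 53.0% of the 13513 genes tested. At an unadjusted p under 0.05, 21 of the 30 were lower in the Cre-labelled libraries and 0 higher, where 6.59% of all genes were lower and 7.30% higher. The libraries did not overlap for 26 of the 30 genes, with the Cre-labelled pair lower each time, against 24.1% of all genes. None of the 30 passed an adjusted p of 0.05 in edgeR, where 0 of all genes did. DESeq2 on the same counts called 17 of the 30 lower at an adjusted p under 0.05, against 3.0% of all genes. A log2 fold change under -1 was seen in 17 of the 30, against 7.07% of all genes. The median log2 fold change was -0.98 for 14 class I genes, -1.00 for 6 class II genes and -1.47 for 10 processing and regulatory genes, beside -0.033 for all genes. H2-DMb2 met the filter only through the floxed-labelled libraries. Without it and H2-T-ps, both under 1 FPKM on average in the Cre-labelled libraries, 20 of 28 genes were lower at an unadjusted p under 0.05. Without Cre replicate 1 or Cre replicate 2, 10 and 9 genes had an unadjusted p under 0.05, where 2.17% and 2.0% of all genes were lower at that level. Without floxed replicate 1 or floxed replicate 2, 21 and 27 passed an adjusted p of 0.05 in edgeR, against 13.9% and 11.4% of all genes called lower. In those fits the lone floxed library is taken to vary like the Cre-labelled pair. With 2 libraries against 2, an exact permutation test of a single gene cannot go below p = 0.333.

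**Figure D1:**
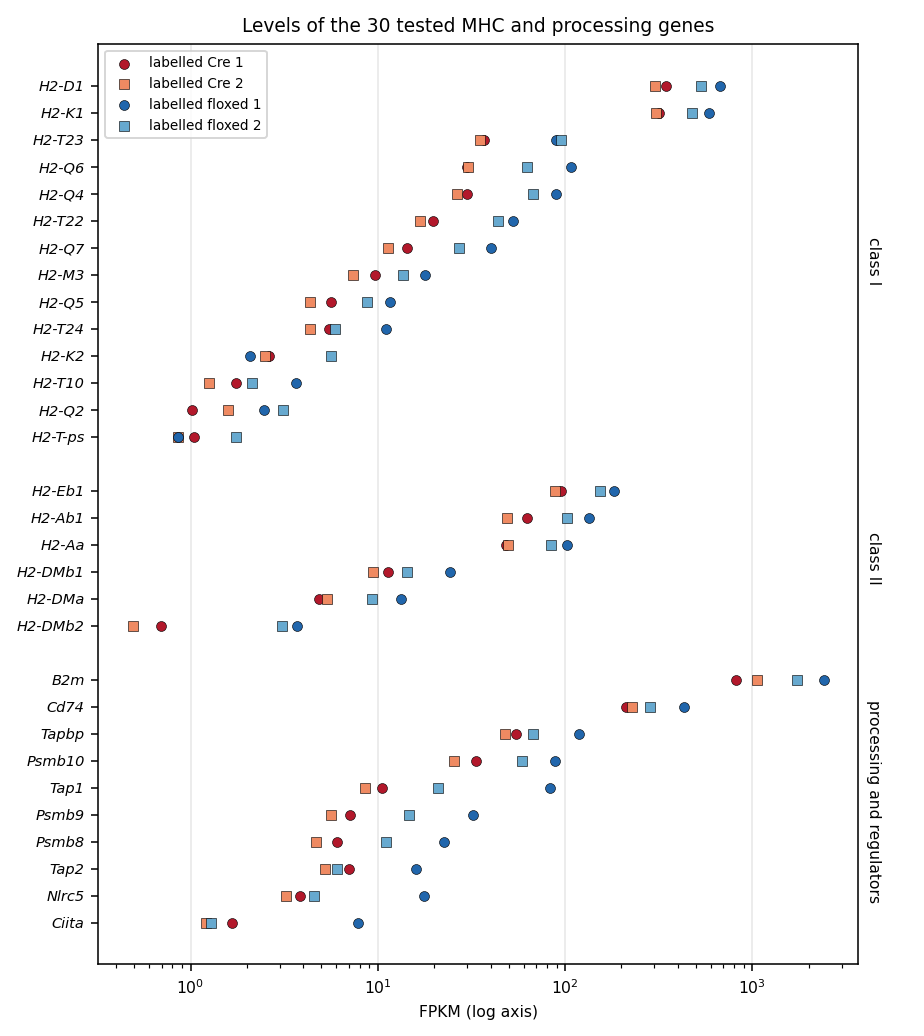
FPKM (log axis) of the 30 tested genes in each library, by class, with red and orange for the Cre-labelled and blue for the floxed-labelled libraries. The groups do not overlap for 26 genes, and the exceptions are H2-K2, H2-T-ps, Tap2 and Ciita.

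The classical class I heavy chains H2-K1 and H2-D1, which present peptide to CD8 T cells, were the most abundant class I transcripts. H2-K1 stood at 317 and 305 FPKM in the Cre-labelled libraries, and at 590.1 and 476 FPKM in the floxed-labelled ones. Its log2 fold change was -0.78 ± 0.31 (SE), with an unadjusted p of 0.055. H2-D1 stood at 346 and 304 FPKM in Cre-labelled against 670.1 and 529.7 FPKM in floxed-labelled libraries, a log2 fold change of -0.88 ± 0.32 (unadjusted p 0.0385, adjusted p 0.328). In both genes the Cre-labelled libraries lay close together and below both floxed-labelled ones. B2m, the light chain shared by all class I molecules, averaged 934 ± 171 FPKM in Cre-labelled and 2073 ± 473 FPKM in floxed-labelled libraries (SD, n = 2 each). Its values were 814 and 1055 FPKM against 2407 and 1739 FPKM, with no overlap, and its log2 fold change was -1.15 ± 0.35 (unadjusted p 0.0213). B2m shares 0.0% of its exon bases and of its transcript's 50-base words with any other gene, so its count does not turn on close copies.

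Among non-classical class I genes, 5 had a log2 fold change under -1.3, further from 0 than the classical pair, while H2-Q2, H2-T10, H2-M3 and H2-T24 lay between -1.11 and -0.78. H2-T23 encodes Qa-1, which shows leader peptides of other class I chains to the NK receptor CD94-NKG2A. It stood at 37.1 and 35.2 FPKM in Cre-labelled and 89.0 and 94.8 FPKM in floxed-labelled libraries, a log2 fold change of -1.35 ± 0.23 (unadjusted p 0.00163, adjusted p 0.12). H2-Q4 was at 30 and 26.6 FPKM against 89.0 and 67.3 FPKM, with a log2 fold change of -1.46. H2-T22, a ligand of some gamma-delta T cells, was at 19.6 and 16.9 FPKM against 52.9 and 44.0 FPKM, with -1.41 and an unadjusted p of 0.00122, the smallest among the 30. In each of these 3 genes both Cre-labelled values lay far below the lower floxed-labelled one. H2-Q6 and H2-Q7, which encode Qa-2 chains, had log2 fold changes of -1.48 and -1.38. H2-M3, which presents bacterial formyl peptides, was at -0.89, H2-Q5, annotated as a polymorphic pseudogene, at -1.02, H2-Q2 at -1.11, H2-T10 at -0.94 and H2-T24 at -0.78. The last 3 had unadjusted p-values of 0.0514, 0.0708 and 0.094. H2-T10 was at -0.56 and H2-T24 at -0.31 without floxed replicate 1. The pseudogenes H2-K2 and H2-T-ps overlapped between groups, at -0.61 and -0.46, and at 0.34 and 0.19 without floxed replicate 2. For both, floxed replicate 2 was the highest library and floxed replicate 1 the lowest or level with the lowest. H2-K2 stood at 2.62 and 2.51 FPKM against 2.09 and 5.62 FPKM.

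Close copies limit how far these genes can be told apart. In H2-T22, 58.5% of the 50-base words of the longest transcript also occur in another gene, most often H2-T10, for which the share was 50.1%. The share was 36.9% for H2-Q4, 35.4% for H2-Q5, 35% for H2-Q6, 27.1% for H2-Q7, 16.0% for H2-T23, 14.3% for H2-D1 and 8.1% for H2-K1. Reads from such words may be left uncounted or assigned to the wrong copy. Of the 4 class I genes with under 10% shared words and exon bases (H2-K1, H2-M3, H2-Q2 and H2-T24), 1 was lower at an unadjusted p under 0.05 in edgeR. The share of all genes was 6.59%. All 4 were lower without overlap, beside 24.1% of all genes, and their median log2 fold change was -0.83.

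The balance within class I did not overlap between the groups. H2-K1 and H2-D1 together made up 80.6% and 80.9% of the class I FPKM sum in the Cre-labelled libraries, and 74.6% and 74.8% in the floxed-labelled ones. The sum itself was 822 and 753 FPKM against 1688 and 1344 FPKM. After this pair its largest parts were H2-T23, H2-Q6, H2-Q4, H2-T22 and H2-Q7, so the limit set by shared words applies to this balance. The balance between the classes was nearly equal in the 4 libraries. Class I over class II FPKM was 3.67 and 3.70 in the Cre-labelled libraries, and 3.65 and 3.64 in the floxed-labelled ones. This ratio was alike in the floxed-labelled pair although floxed replicate 1 was higher for both sums.

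**Figure D2:**
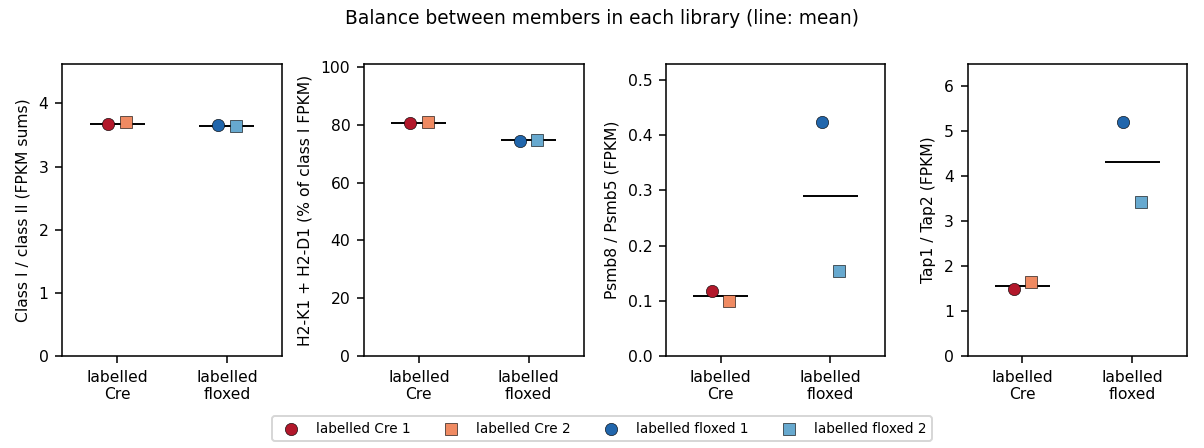
Ratios of FPKM sums or values in each library (points; line, group mean), Cre-labelled left of floxed-labelled. Class I over class II lies between 3.64 and 3.70 in all 4 libraries, the H2-K1 and H2-D1 share is higher in the Cre-labelled pair, and Psmb8 over Psmb5 and Tap1 over Tap2 are highest in floxed replicate 1.

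Among class II genes, the peptide-presenting chains differed by similar amounts. H2-Aa, the alpha chain of I-A, stood at 48.3 and 49.8 FPKM in Cre-labelled and 103 and 84.4 FPKM in floxed-labelled libraries. H2-Ab1, its beta partner, stood at 63.0 and 48.7 FPKM against 134 and 102 FPKM. H2-Eb1, the beta chain of I-E, stood at 95.0 and 88.3 FPKM against 183 and 153 FPKM. None of the 3 overlapped between groups, where 24.1% of all genes were lower without overlap. Their log2 fold changes were -0.93 ± 0.24, -1.07 ± 0.27 and -0.87 ± 0.23, with unadjusted edgeR p-values of 0.0103, 0.00954 and 0.0127. These 3 share at most 0.6% of their 50-base words with other genes. Without floxed replicate 1 their log2 fold changes were -0.83, -0.91 and -0.79.

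H2-DM, which exchanges the invariant chain fragment for peptide, was also lower in the Cre-labelled libraries. H2-DMa was at 4.88 and 5.35 FPKM in Cre-labelled against 13.3 and 9.29 FPKM in floxed-labelled libraries, a log2 fold change of -1.14 ± 0.25 (unadjusted p 0.00567). H2-DMb1 was at 11.3 and 9.41 FPKM against 24.2 and 14.4 FPKM, a log2 fold change of -0.89 ± 0.31 and -0.52 without floxed replicate 1. Its copy H2-DMb2 stood at 0.693 and 0.492 FPKM against 3.69 and 3.08 FPKM, from 24 and 15 counts against 148 and 98. Its log2 fold change of -2.50 ± 0.45 was the lowest of the 30 genes, and 30.9% of its 50-base words occur elsewhere, mostly in H2-DMb1. H2-DO restrains H2-DM, and its chains lay just under the filter. H2-Oa had 9 and 14 counts against 38 and 40, while H2-Ob overlapped at 66 and 91 counts against 96 and 93. H2-Oa shares 22.8% of its exon bases with BC051537. H2-Eb2, a second beta chain, had 5 and 5 counts against 30 and 31, also without overlap. Cd74, on chromosome 18, was at 211 and 228 FPKM in Cre-labelled and 433 and 285 FPKM in floxed-labelled libraries, with a log2 fold change of -0.70 ± 0.30 (unadjusted p 0.066), or -0.43 without floxed replicate 1. Cd74 over the class II sum was 0.939 and 1.12 in Cre-labelled and 0.936 and 0.771 in floxed-labelled libraries, and so overlapped.

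Of the 14 genes under the filter, the other 11 were class I. H2-Q10, best known from liver, overlapped at 31 and 48 counts against 50 and 38. The remaining 10 had at most 15 counts in any library, and no direction was read from them.

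The immunoproteasome subunits were lower in the Cre-labelled libraries with no overlap, as were 24.1% of all genes. Psmb8 stood at 6.07 and 4.68 FPKM in Cre-labelled and 22.7 and 11 FPKM in floxed-labelled libraries, a log2 fold change of -1.63 ± 0.38 (unadjusted p 0.00693). Psmb9 stood at 7.14 and 5.62 FPKM against 32.2 and 14.6 FPKM, a log2 fold change of -1.86 ± 0.40 (unadjusted p 0.00491). Psmb10 stood at 33.5 and 25.5 FPKM against 88.1 and 59.1 FPKM, a log2 fold change of -1.31 ± 0.28 (unadjusted p 0.00474). In all 3, floxed replicate 1 was the highest library, and without it the values were -1.08, -1.25 and -1.05. The constitutive subunits that they replace had log2 fold changes of -0.36 for Psmb5, -0.36 for Psmb6 and -0.60 for Psmb7. Without floxed replicate 1 these were -0.59, -0.47 and -0.70, nearer to the immunoproteasome values, and the difference between the sets was not tested. Psmb8 over Psmb5 was 0.118 and 0.1 in Cre-labelled and 0.423 and 0.154 in floxed-labelled libraries. Psmb9 over Psmb6 was 0.136 and 0.136 against 0.559 and 0.233, and Psmb10 over Psmb7 was 2.95 and 2.70 against 5.82 and 3.62.

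Tap1 encodes a subunit of the peptide pump. It stood at 10.5 and 8.58 FPKM in Cre-labelled and 83.2 and 20.9 FPKM in floxed-labelled libraries. The difference was -2.42 ± 0.65 on the log2 scale (unadjusted p 0.0124), and -1.18 without floxed replicate 1. Tap1 and Psmb9 are transcribed in opposite directions, with RefSeq starts 226 bases apart on chromosome 17. In GENCODE their exons overlap, over 3.9% of the exon length of Tap1 and 5.8% of that of Psmb9, so some reads could belong to either gene. Tap1 over Psmb9 was 1.47 and 1.53 in Cre-labelled and 2.58 and 1.43 in floxed-labelled libraries, so the ratio stood apart in floxed replicate 1 alone. Tap2, the partner subunit, overlapped at 7.06 and 5.25 FPKM against 16.0 and 6.09 FPKM. The fold change of -0.83 (log2) was -0.035 without floxed replicate 1, and other genes overlap 18.5% of its exon length. Tapbp, the tapasin that bridges the pump to class I, was at 55.0 and 47.8 FPKM against 119 and 67.6 FPKM. Its log2 fold change was -0.85 ± 0.32 (unadjusted p 0.0461), or -0.45 without floxed replicate 1, and other genes overlap 29.0% of its exon length.

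The transactivators depended on floxed replicate 1. Nlrc5 stood at 3.83 and 3.25 FPKM in Cre-labelled and 17.6 and 4.56 FPKM in floxed-labelled libraries. Its log2 fold change was -1.62 ± 0.61 (unadjusted p 0.0427), and -0.41 without floxed replicate 1. Ciita stood at 1.66 and 1.21 FPKM against 7.86 and 1.29 FPKM, with overlap. The log2 difference was -1.64 ± 0.80 (unadjusted p 0.093), and 0.11 without floxed replicate 1. Floxed replicate 2 thus held Ciita at the level of the Cre-labelled libraries while its H2-Aa, H2-Ab1 and H2-Eb1 values lay above theirs.

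The members divide by how far apart the floxed-labelled libraries were. Floxed replicate 1 over replicate 2 had a median ratio of 2.13 among processing and regulatory genes, 1.29 among tested class I and 1.27 among tested class II genes, beside 1.09 for all genes tested. It was 6.12 for Ciita, 3.98 for Tap1, 3.87 for Nlrc5 and 2.63 for Tap2, and 0.938 for H2-T23. Without floxed replicate 1 the median log2 fold change was -1.02 for class I, -0.87 for class II and -0.70 for processing and regulatory genes. Both Cre-labelled libraries lay below floxed replicate 2 in 28 of the 30 genes, the exceptions being Tap2 and Ciita, against 40.1% of all genes.

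**Figure D3:**
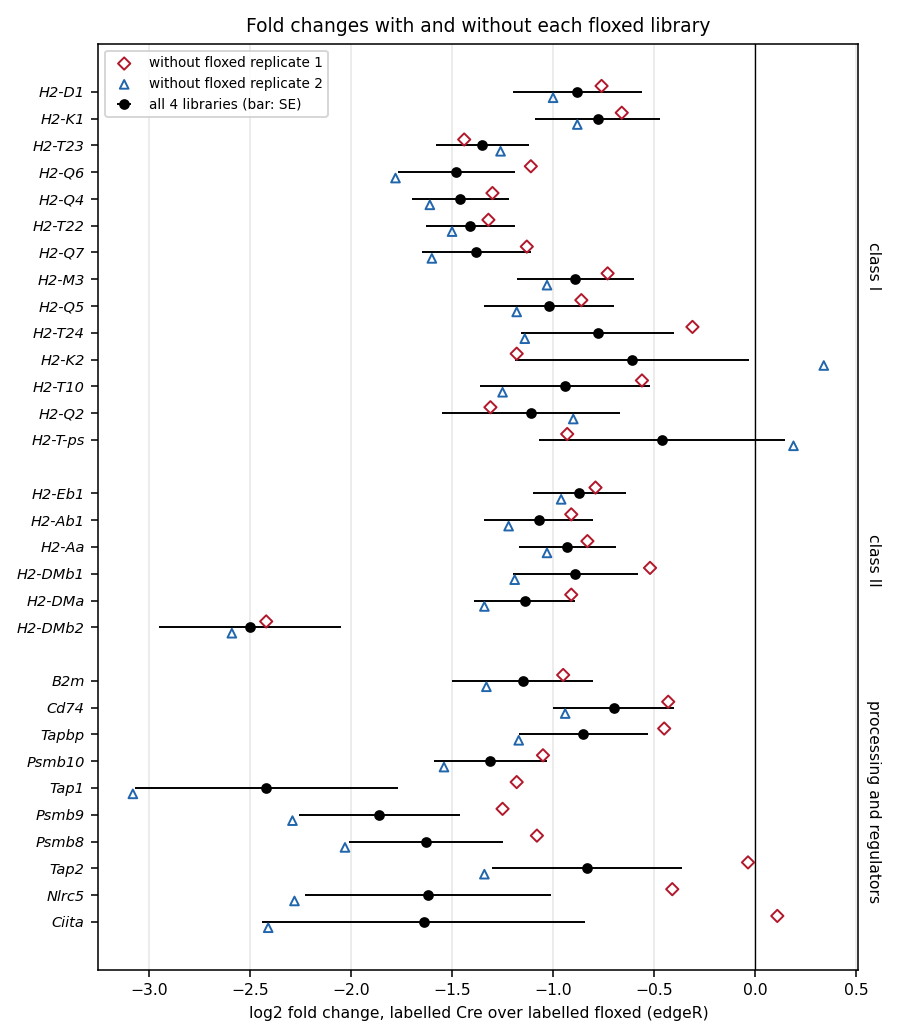
Log2 fold change of each tested gene, Cre-labelled over floxed-labelled, from all libraries (black, bar SE), without floxed replicate 1 (red diamonds) and without floxed replicate 2 (blue triangles). Class I and class II chains stay between -0.31 and -2.42 without floxed replicate 1, whereas Tap2 reaches -0.035 and Ciita 0.11.

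Related genes were taken from lists chosen by function. Counts are at an unadjusted p under 0.05 in edgeR, where 6.59% of all genes were lower and 7.30% higher, so that 1 gene of 10 is near the share of all genes. None of those named passed an adjusted p of 0.05 in edgeR. DESeq2 gave an adjusted p under 0.05 for Irf9, Irf1, Psme2, Psme1, Hspa5, Ctss, Lgmn, Cd83, Cd40 and Cd274. Of 12 tested genes of interferon-gamma signalling, the main inducer of MHC genes, 3 were lower and 0 higher. Among them, Irf9 had a log2 fold change of -1.05 and Irf1 of -2.08. Irf1 averaged 11.1 ± 1.41 FPKM in Cre-labelled and 47.7 ± 36.4 FPKM in floxed-labelled libraries (SD, n = 2 each), and its log2 fold change was -1.03 without floxed replicate 1. The list's median was -0.62, and -0.32 without that library. Ifng itself, under the filter, had 3 and 0 counts in the Cre-labelled libraries and 61 and 1 counts in the floxed-labelled ones, so floxed replicate 1 alone held most of its reads.

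Proteasome regulators included 2 lower of 6 tested, the PA28 subunits Psme2 at -1.26 and Psme1 at -0.84, and Pomp was at -0.44. Peptide loading and trimming genes gave 1 lower and 1 higher of 10, Tapbpl at -1.16 and the chaperone Hspa5 at 1.15, with Lnpep at 0.71. Tapbpl was at -0.58 and Lnpep at 1.42 without floxed replicate 1. Class II proteolysis genes gave 4 lower of 8, among them the cathepsin Ctss at -1.33, the legumain gene Lgmn at -1.11 and the thiol reductase Ifi30 at -0.61, and without floxed replicate 1 Ctss was at -0.70. The DNA-binding factors of the class II promoter gave 0 lower and 1 higher of 8, Nfya at 0.81, with Nfyb at -0.32 and Creb1 at 0.40 (-0.19 and 0.75 without floxed replicate 1). Class I-like genes gave 1 lower of 4, Hfe at -0.67, with Mr1 at -0.47 and Fcgrt at -0.36, the last at -0.68 without floxed replicate 1 and 0.05 without floxed replicate 2. Costimulation genes gave 3 lower of 5, Cd83 at -2.72, Cd40 at -2.22 and Cd274, which encodes PD-L1, at -3.40. Cd274 stood at 0.877 and 1.54 FPKM in Cre-labelled and 23.7 and 2.32 FPKM in floxed-labelled libraries. Without floxed replicate 1, Cd274 was at -1.00, Cd83 at -1.91 and Cd40 at -1.81, and the list's median was -1.00 in place of -2.22.

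**Figure D4:**
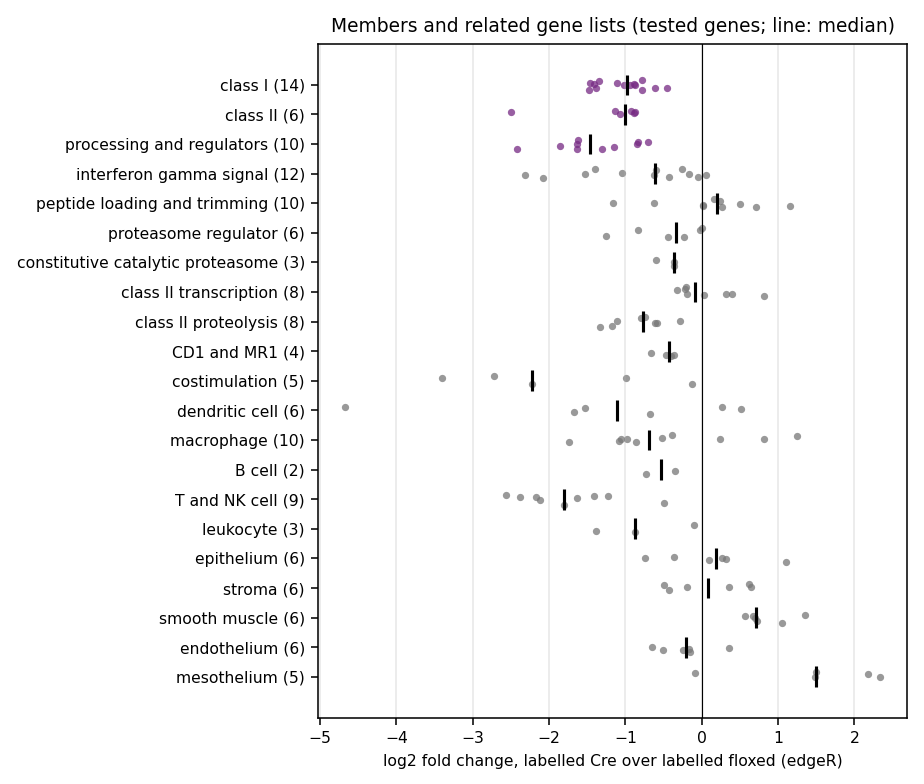
Log2 fold change of each tested gene (points, jittered vertically), Cre-labelled over floxed-labelled, for the MHC groups (purple) and the related lists (grey), with each list's median as a line and its number of tested genes in brackets. The medians are -0.98, -1.00 and -1.47 for the MHC groups, -1.80 for T and NK cell markers and 1.50 for mesothelium markers.

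Some markers of cells that carry class II or respond to MHC also had lower values. The shares of all genes given for the related lists apply to these counts too. In whole tissue, fewer cells of a type and less RNA per cell cannot be told apart. T and NK cell markers summed to 15.1 and 14.7 FPKM in Cre-labelled and 58.5 and 55.6 FPKM in floxed-labelled libraries, with 7 of 9 tested lower at an unadjusted p under 0.05. Macrophage markers summed to 257 and 208 FPKM against 530.5 and 311 FPKM, with 5 of 10 lower and 2 higher. The lower genes were C1qa, C1qb, C1qc, Cd68 and Fcgr1. The complement genes C1qa, C1qb and C1qc were the largest parts of the sum in every library, so the sum mainly follows them. Mrc1 and Cd163 were higher in the Cre-labelled libraries without overlap, and Csf1r and Mertk overlapped. The list thus did not move in a single direction. Dendritic cell markers summed to 18.3 and 17.3 FPKM against 46.1 and 20.6 FPKM, with 1 of 6 lower. The 3 general leukocyte markers summed to 47.8 and 46.8 FPKM against 83.2 and 64.7 FPKM, with 1 of 3 lower. B cell markers summed to 8.02 and 5.99 FPKM against 7.12 and 10.5 FPKM, with 0 of 2 tested lower. No listed marker was at 0 in all libraries. The class II sum over Ptprc, the pan-leukocyte gene CD45, was 96.3 and 72.6 in Cre-labelled and 70.1 and 128 in floxed-labelled libraries, and so overlapped. The class I sum over Ptprc overlapped too, at 353 and 268 against 256 and 468. Ptprc itself stood at 2.33 and 2.8 FPKM against 6.61 and 2.87 FPKM. The smooth muscle sums given above were higher in the Cre-labelled libraries, with 3 of 6 genes higher, and mesothelium markers summed to 57.2 and 42.4 FPKM against 36.6 and 20.8 FPKM, with 4 of 5 higher. The part of these cell types in the MHC values was not tested.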

How the data were processed

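RNA came from uterine tissue by TRIzol and was prepared with a NEBNext Ultra kit, per the labels' protocols. Reads were handled with HISAT2 and HTSeq 0.13.5 on GRCm38, per the submitters' processing notes. The authors deposited raw counts for each gene together with FPKM. Each deposited FPKM equals the count over gene length and library total, and members' implied lengths matched merged exons of GENCODE mouse release 21 within 0.1% for 44 of 44. Whether counting used strand is not stated.

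Counts were tested with edgeR 4.0.16 (quasi-likelihood, TMM scaling, group as the only term, 2 residual degrees of freedom, R 4.3.3) over the 13513 genes with a mean of at least 1 FPKM, with two-sided p-values adjusted by Benjamini-Hochberg over all of them. Fold changes come from scaled counts and levels are FPKM. SE is the log2 fold change over the root of the test statistic. The procedure was tested on simulated data. Shared words were counted over 50-base windows of each member's longest transcript.

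Members and lists were chosen with earlier results of these data known. Each tested member was named, and fixed members plus the 4 others of smallest p (H2-T22, H2-Q4, H2-T23 and H2-DMb2) were given by library, as were, by log2 fold change, the 3 genes of smallest p in each pathway list. H2-K2, H2-Q10 and H2-Eb2 were given values beyond that rule, and 1 gene it names is not reported here. Alternatives were no filter, a filter of 5 FPKM, median-of-ratios and total count scaling, DESeq2 1.42.0, limma 3.58.1 on log2(FPKM + 1) and log2(FPKM + 0.1), a replicate block and each library left out. Leaving out members with shared sequence, or under 1 FPKM in a group, was added after the data were seen.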

Additional observations from a re-analysis of the deposited data

How the results depend on the processing

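All 30 tested genes kept a negative log2 fold change under every setting in which they were tested, except H2-K2 (-1.18 to 0.34 with a library left out) and H2-T-ps (-0.93 to 0.19), both positive without floxed replicate 2, and Ciita (-2.41 to 0.11), positive without floxed replicate 1. Members at an adjusted p under 0.05 numbered 0 in the main test, 17 of 44 with no filter (3.41% of all genes lower), 17 with DESeq2 (3.0%), and 0 to 27 with a library left out (21 without floxed replicate 1 and 27 without floxed replicate 2, beside 13.9% and 11.4% of all genes, where the lone floxed library is assumed to vary like the Cre-labelled pair, and 0 without either Cre library). Members lower at an unadjusted p under 0.05 numbered 9 to 27 with a library left out, against 21, and were 10 (2.17% of all genes) and 9 (2.0%) when Cre replicate 1 or 2 was dropped; they were 5 to 11 in class I, 1 to 6 in class II and 2 to 10 among processing genes. Without genes with shared sequence, 9 of 14 tested members were lower at an unadjusted p under 0.05 in edgeR. These were 1 of 4 in class I, 3 of 3 in class II and 5 of 7 among processing genes. Medians with a library left out ran from -1.16 to -0.82 in class I, -1.20 to -0.87 in class II and -1.79 to -0.70 among processing genes, and the class I median was -1.16 with a filter of 5 FPKM. With the replicate number as a block, 18 members were lower at an unadjusted p under 0.05, beside 4.86% of all genes. Deviations from the group mean in Cre replicate 1 and floxed replicate 1 had a correlation of -0.083 across genes. With 2 libraries per group, this cannot show whether same-numbered libraries were paired. The cause of these differences was not tested. Genes under a mean of 1 FPKM were tested only in the setting with no filter.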
